A study of Mus musculus with 8 samples.

Results

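The genes described here are the enzymes that finish the chemical handling of drugs, hormones and waste metabolites in liver. They are the glutathione S-transferases of the Alpha, Kappa, Mu, Omega, Pi, Theta and Zeta classes (Gst), the microsomal glutathione transferases (Mgst), the UDP-glycosyltransferases (Ugt), the sulfotransferases (Sult) and the carboxylesterases (Ces). Members were taken by symbol alone, as every row of the deposited expression table whose name begins with one of these stems and a number. The rule found 75 of the 16133 genes in the table, namely 21 Gst, 3 Mgst, 21 Ugt, 12 Sult and 18 Ces genes.

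Liver RNA came from METTL14Alb mice, labelled knockout (here KO), and from METTL14f/f mice, labelled wild type (here WT), so the WT mice carry the floxed gene. METTL14 and METTL3 together form the core of the methyltransferase that places N6-methyladenosine (m6A) on mRNA. Every mouse of both genotypes had received an intraperitoneal injection of tunicamycin at 2 mg/kg and was sampled after 24 hours. Tunicamycin blocks N-linked glycosylation and thereby stresses the endoplasmic reticulum. Polyadenylated RNA was sequenced as such (input) and after pulldown by an antibody to m6A (IP), and KO input, KO IP, WT input and WT IP hold 2 libraries each. No library came from mice without tunicamycin. The labels name neither the Cre line nor the sex or age of the mice, nor state if both libraries of a group stem from different animals. The p-values therefore cover only the spread among these libraries, which may be technical.

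Conjugation makes a lipophilic compound soluble enough to leave the hepatocyte in bile or blood. Glutathione transferases join glutathione to electrophiles, UDP-glucuronosyltransferases join glucuronic acid from UDP-glucuronate, and sulfotransferases join sulfate from the donor PAPS. Carboxylesterases work earlier in the sequence and split esters and amides, including lipid esters. The glutathione and sulfate enzymes are mostly cytosolic, whereas the UDP-glycosyltransferases, the microsomal glutathione transferases and most carboxylesterases reside in the endoplasmic reticulum.

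The estimated depth of the input libraries was 12589957 reads (KO A) and 12386423 reads (KO B), against 16824811 reads (WT A) and 13495399 reads (WT B). The letters A and B only name libraries, since the replicate number of each could not be read from the values. Counts are given as normalized read counts, the reads of a library divided by its size factor. These reads were not taken from a count table but worked out from the printed digits of the means in the authors' deposited table, which succeeded for all 75 members. The header of the authors' deposited table leaves the direction of the fold change unnamed, and KO over WT was read from the peak lists. Among other genes with a mean of at least 100, those with a log2 change above 2 numbered 155 with peaks in just the KO list and 0 with peaks in just the WT list. For those below -2 the numbers were 28 (KO list) and 44 (WT list). Among all genes with that mean, 2990 had peaks in just the KO list and 254 in just the WT list. An excess of the KO list was therefore common to genes in general. The targeted gene itself was not detectably changed: Mettl14 had 64.6 and 62 normalized reads in the KO libraries, against 79.8 and 99.7 in the WT libraries, with a log2 change of -0.50 ± 0.41 (SE, adjusted p = 0.342) in the authors' deposited table. Whether those reads lie in the deleted part was not analysed here.

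Most of these enzymes were lower in KO liver. Of the members, 69 had an adjusted p in the authors' deposited table, and 40 of them were lower and 10 higher in KO at an adjusted p under 0.05. Of all 14257 genes tested there, 22.2% were lower and 20.4% higher, so 42.5% were called in either direction. At least a 2-fold change was seen for 32 of the 40 lower members and for 8 of the 10 higher ones. The median log2 change of the 69 members was -0.98, against 0.05 over all tested genes. The 6 members without an adjusted p (Gstt4, Mgst2, Sult2a1, Sult2a4, Sult2a7 and Sult4a1) had mean counts of at most 2.13. In limma on the reads per library, 41 members were lower and 12 higher without WT A, and 41 lower and 10 higher without WT B, but 0 were called without KO A and 0 without KO B, where 0 genes of the whole table were called.

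**Figure D1:**
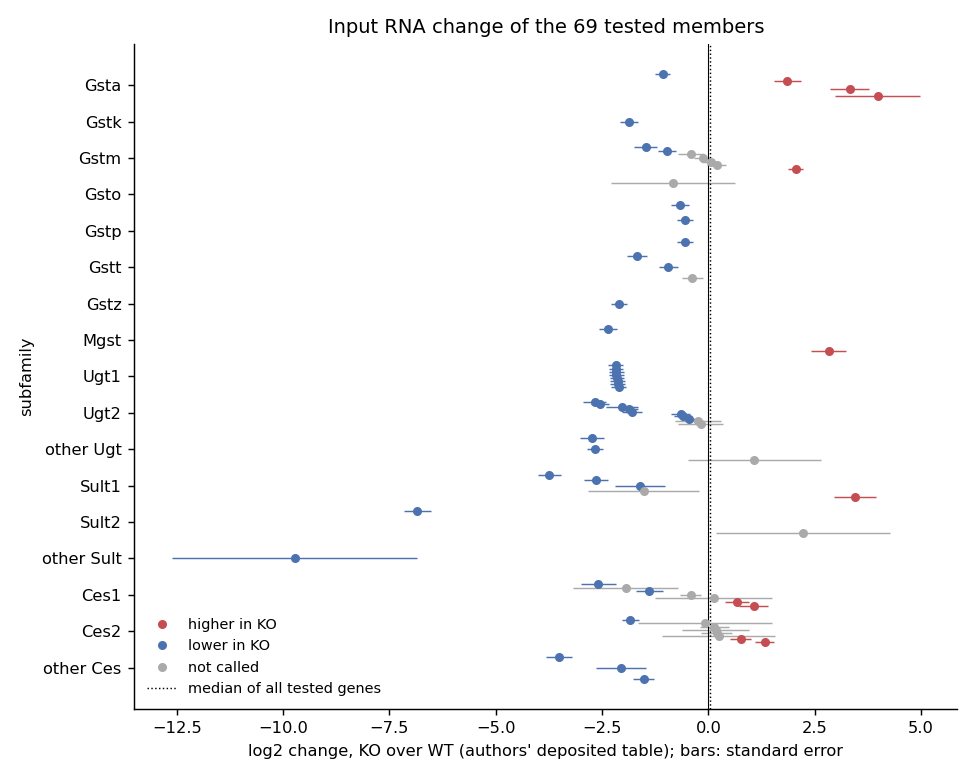
Each point is 1 of the 69 tested members, placed by its log2 change in KO over WT livers from the authors' deposited table (horizontal axis) within its subfamily (vertical axis), with its standard error as a bar and with the median of all tested genes, 0.05, as a dotted line. The 8 Ugt1 rows sit together between -2.18 and -2.11, whereas the Gsta genes lie on both sides of 0, and the value of Sult5a1 at the far left, -9.73, comes from a gene with no read in either KO library.

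The libraries of the genotypes did not overlap for most members, nor for most genes of the whole table. Among the 62 members whose mean reached 10, both KO libraries lay below both WT libraries for 45 and above them for 10, while 7 overlapped. With the 8 Ugt1 rows, which have later exons in common, counted once, 38 of 55 lay below and 10 above. Over the 12766 genes with that mean and recovered reads, 39.4% lay below and 39.7% above without overlap, and 2673 overlapped. Members therefore differed from all genes mainly in the direction. Genes with high counts were often lower in KO in general: of the 2184 genes with a mean of at least 1000, 58.4% were called lower and 11% higher, with a median log2 change of -0.65. Of the 32 members in that class 26 were called lower and 3 higher, with a median of -1.735. All 8 Ugt1 rows, each called lower, are in that class and were not collapsed here. In bulk liver, fewer hepatocytes and less RNA per hepatocyte cannot be told apart.

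Markers of cell types moved with genotype as well. Of 19 hepatocyte markers, 17 were lower and 1 higher in KO in the authors' deposited table. Of 14 cholangiocyte markers 12 were higher and 0 lower, with a summed level of 5588 and 4285 normalized reads in the KO libraries, against 907 and 1120 in the WT libraries. Among the defining markers, Cftr was at 0 in both WT libraries, Cldn4 in WT A and Krt7 in WT B. Of 13 stellate cell markers 10 were higher and 0 lower, and of 15 macrophage markers 2 were higher and 2 lower. Of 12 endothelial markers 0 were higher and 1 lower, and of 9 tested lymphocyte and neutrophil markers 0 were called in either direction. The median log2 changes in the authors' deposited table were -2.22 for the hepatocyte, 3.55 for the cholangiocyte, 2.29 for the stellate and -0.16 for the macrophage list. All 17 genes of a list of male-biased liver genes were lower, and of 14 tested female-biased genes 4 were higher and 4 lower, while the Y-linked gene Ddx3y was read in all 4 libraries, with 439 and 449 normalized reads in the KO libraries, against 746 and 624 in the WT libraries. The summed stellate level was 12226 and 8961 normalized reads in the KO libraries, against 4945 and 3834 in the WT libraries. The part of these markers in the changes of the conjugation enzymes was not tested.

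The scaling of the libraries matters for the smaller changes. When the libraries were scaled to equal totals, limma called 58.5% of all genes higher and 7.91% lower in KO, and the median over all genes moved to 0.865 on the log2 scale, against 0.06 in limma with the authors' size factors. In that scaling 28 members were lower and 16 higher. Of the 50 members called by the deposited test, 6 changed sign in it, namely Gsto1, Gstp1, Gstp2, Ugt2b1, Ugt2b34 and Ugt2b35, each called lower with the authors' size factors. Calls lost in it were those of these 6 and of Ces1e, Gsta3, Gstm4, Gstm7, Gstt1 and Sult1a1, 12 of the 50 in all.

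The glutathione transferases went in both directions, also within the Alpha and Mu classes. Of 20 tested Gst genes 10 were lower and 4 higher in KO in the authors' deposited table, whereas limma with equal totals called 3 lower and 7 higher. The Alpha class held 3 of the 4 higher genes. Gsta1 (chromosome 9, 78230669 to 78242683, mm10) had 591 and 295 normalized reads in the KO libraries, against 10.8 and 45.8 in the WT libraries. Gsta2, on the same chromosome, had 507 and 166 normalized reads in the KO libraries, against 31.3 and 36.4 in the WT libraries. Both genes were high in each KO library and far lower in each WT library, but KO A stood 2-fold and 3.06-fold above KO B. The deposited log2 change of Gsta1 in the authors' deposited table was 3.977 ± 0.999 (SE, adjusted p = 0.000313) and that of Gsta2 was 3.32 ± 0.46 (SE, adjusted p = 7.5e-12). In limma the log2 change of Gsta1 was 3.16 without WT A, 5.15 without WT B and 4.655 without KO B, and that of Gsta2 was 2.26 without KO A. The row of Gsta1 is uncertain, since the row of the gene Gm3776 held nearly the same values, with 629 and 266 normalized reads in the KO libraries, against 6.47 and 40.4 in the WT libraries, and reads of near copies can be split between rows.

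Gsta4, which conjugates the lipid peroxidation product hydroxynonenal, had 306 and 252 normalized reads in the KO libraries, against 79.8 and 74.1 in the WT libraries. It rose 3.62-fold in the authors' deposited table (log2 SE 0.32, adjusted p = 3.58e-08). Gsta3, the remaining Alpha gene, went the other way, with 2095 and 2122 normalized reads in the KO libraries, against 4294 and 4567 in the WT libraries. Its log2 change in the authors' deposited table was -1.07 ± 0.18 (SE, adjusted p = 1.11e-08), a call that limma with equal totals did not make.

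The Mu class lies in 1 cluster on chromosome 3, between 107895854 and 108045179 (mm10), and its 7 genes did not move as a block. Gstm3 had 7045 and 6314 normalized reads in the KO libraries, against 1567 and 1660 in the WT libraries, a 4.14-fold rise in the authors' deposited table (log2 SE 0.18, adjusted p = 1.33e-28). Gstm7, in the same cluster, had 406 and 542 normalized reads in the KO libraries, against 956 and 1687 in the WT libraries, and was 2.79-fold lower (log2 SE 0.27, adjusted p = 4.89e-07) in the authors' deposited table. Gstm4 was 1.97-fold lower there (log2 SE 0.21, adjusted p = 1.48e-05). With equal totals limma called neither Gstm7 nor Gstm4, at log2 changes of -0.62 and -0.17. Gstm1, with the highest mean count of the class, overlapped between genotypes, at 18146 and 17097 normalized reads in the KO libraries, against 14380 and 19617 in the WT libraries. Gstm1, Gstm2, Gstm5 and Gstm6 were not called, with log2 changes of -0.42 to 0.19 in the authors' deposited table. With equal totals limma called 4 Mu genes higher and 0 lower, with Gstm1 at 0.89 and Gstm2 at 1.04 on the log2 scale. Mu genes are close paralogs, so reads may be divided among them by the authors' counting.

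The other cytosolic and Kappa classes held no higher gene. Gstz1, the maleylacetoacetate isomerase of tyrosine breakdown, had 3624 and 4409 normalized reads in the KO libraries, against 16488 and 17965 in the WT libraries. It was 4.29-fold lower in the authors' deposited table (log2 SE 0.18, adjusted p = 1.12e-28). Gstk1, the Kappa transferase of mitochondria and peroxisomes, was 3.64-fold lower there (log2 SE 0.21, adjusted p = 3.85e-17). Of the Theta genes, Gstt2 was 3.2-fold and Gstt1 1.92-fold lower in the authors' deposited table (with an adjusted p of 4.69e-12 and 0.000111), and limma with equal totals did not call Gstt1, at -0.105 on the log2 scale. Gsto1, an Omega enzyme with thiol transferase activity, was 1.6-fold lower there (log2 SE 0.21, adjusted p = 0.0041). The Pi genes Gstp1 and Gstp2 were 1.47-fold and 1.46-fold lower in the same authors' deposited table (with an adjusted p of 0.00673 and 0.0106), and as near copies they may share reads. Gsto1, Gstp1 and Gstp2 had log2 changes of 0.17, 0.27 and 0.28 in limma with equal totals, the opposite sign.

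The 2 tested microsomal transferases moved in opposite directions. Mgst1, which sits in the endoplasmic reticulum and the outer mitochondrial membrane, had 3541 and 2807 normalized reads in the KO libraries, against 13655 and 19171 in the WT libraries. The authors' deposited table put it 5.17-fold lower in KO (log2 SE 0.21, adjusted p = 5.82e-27). Mgst3 had 234 and 166 normalized reads in the KO libraries, against 28 and 28.3 in the WT libraries, and was 7.11-fold higher in the authors' deposited table (log2 SE 0.41, adjusted p = 4.27e-11).

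**Figure D2:**
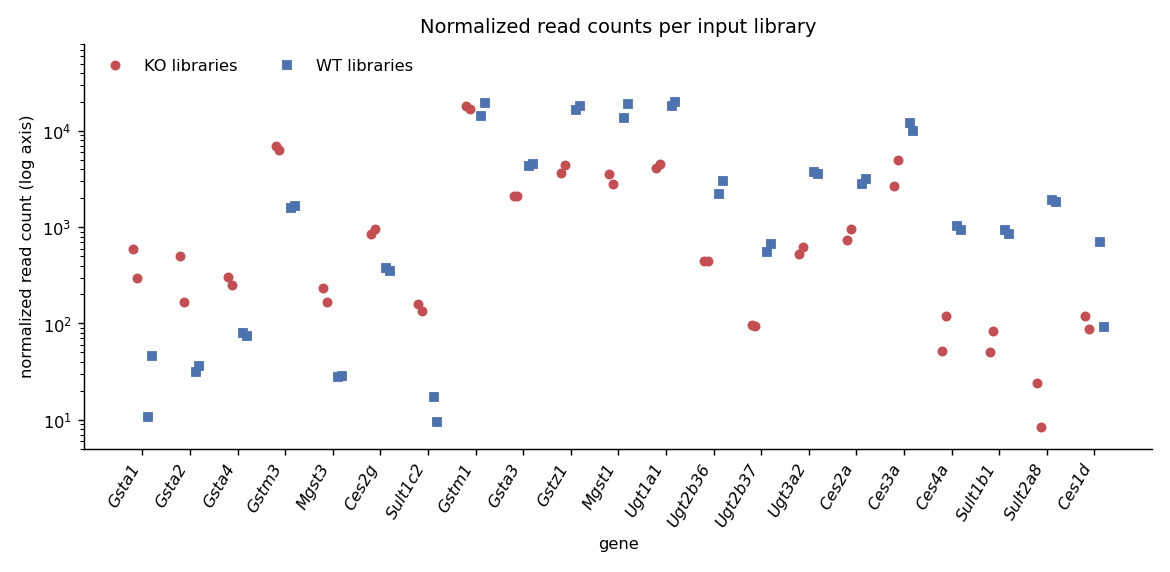
Normalized read counts of 21 members (log axis) are drawn for each input library, with the 2 KO libraries as circles on the left of each gene and the 2 WT libraries as squares on the right. The genotypes stand apart without overlap for each gene drawn except Gstm1 and Ces1d, where the WT libraries lie on both sides of the KO libraries (Gstm1) or WT B lies between them (Ces1d).

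Nearly every UDP-glycosyltransferase was lower in KO liver. Of 21 tested Ugt genes 18 were lower and 0 higher in the authors' deposited table, with a median log2 change of -2.135, and limma with equal totals called 15 lower and 0 higher. The 3 genes not called were Ugt2a1, Ugt2a2 and Ugt8a, with means of at most 40.9. The 20 Ugt genes with a mean of at least 10 all had both KO libraries below both WT libraries, against 39.4% of all genes with that mean. These rows are not all separate, since they include the 8 Ugt1 rows and the overlapping genes Ugt2a1 and Ugt2a2. The gap was small for Ugt2a1, with 35.1 and 36.5 normalized reads in the KO libraries, against 43.1 and 41.7 in the WT libraries.

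The count of Ugt genes leans on 1 locus. The Ugt1 genes on chromosome 1 (88055411 to 88220002, mm10) each have a first exon of their own joined to shared later exons, and the mean counts of the 8 rows ranged from 9151 to 11702. Ugt1a1, which conjugates bilirubin, had 4160 and 4518 normalized reads in the KO libraries, against 18195 and 19934 in the WT libraries. Its log2 change in the authors' deposited table was -2.135 ± 0.17 (SE, adjusted p = 5.23e-33), and the 8 rows ranged from -2.18 to -2.11. With the Ugt1 rows counted once, 62 members remained tested, of which 33 were lower and 10 higher, and their median was -0.66.

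Reads beyond the shared part separate the Ugt1 genes to some degree. The row of Ugt1a10 was taken as the shared part, since the rows of Ugt1a2 and Ugt1a7c differed from it by under 1% of reads in each genotype. Beyond it, Ugt1a1 held 991 and 1016 normalized reads in the KO libraries, against 3546 and 4647 in the WT libraries. Ugt1a6a, a phenol-conjugating form, held 396 and 385 in the KO libraries, against 1170 and 1950 in the WT libraries. Ugt1a5 held 82.9 and 59.5 in the KO libraries, against 417 and 500 in the WT libraries. Ugt1a9 differed from these, with 139 and 167 normalized reads beyond the shared part in the KO libraries, against 101 and 97 in the WT libraries. These WT values match those of rows taken as equal to the shared part, so the direction for Ugt1a9 is uncertain. Ugt1a2 had 86.3 and 83.5 in the WT libraries, against 11.2 and -13.6 in the KO libraries. Ugt1a7c had -2.16 and 119 in the WT libraries, against 15.9 and 5.95 in the KO libraries. The log2 ratio of KO over WT means was 0.63 for these reads of Ugt1a9, against -2.03 for Ugt1a1, -1.998 for Ugt1a6a, -1.54 for Ugt1a6b and -2.69 for Ugt1a5. These differences of counts carry no test of their own. The Ugt1a6b gene ends at 88218998 and that of Ugt1a10 at 88220002, so their shared parts may differ.

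**Figure D3:**
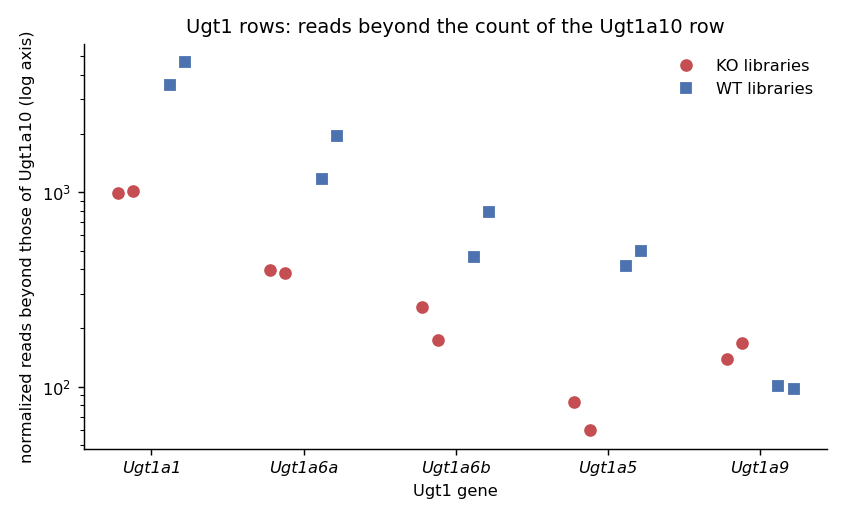
Normalized reads of 5 Ugt1 rows beyond those of the Ugt1a10 row (log axis) are drawn per input library, KO libraries as circles on the left and WT libraries as squares on the right of each gene. Ugt1a9 has its KO libraries above its WT libraries, and the other rows have them below. The WT values of Ugt1a9 are of the size seen in rows taken as equal to the shared part.

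The Ugt2 genes lie in 1 region of chromosome 5 and differed in how far they fell. Ugt2b36 had 449 normalized reads in each KO library, against 2220 and 3018 in the WT libraries. Ugt2b37 had 96.4 and 94.3 normalized reads in the KO libraries, against 550 and 672 in the WT libraries. The log2 changes in the authors' deposited table were -2.55 ± 0.21 (SE, adjusted p = 4.69e-31) for Ugt2b36 and -2.68 ± 0.26 (SE, adjusted p = 1.91e-23) for Ugt2b37. Ugt2b38 was 4.08-fold lower in the authors' deposited table (with an adjusted p of 2.75e-07), with 167 and 108 normalized reads in the KO libraries, against 323 and 800 in the WT libraries, which were 2.47-fold apart. Without WT B, limma gave Ugt2b38 a log2 change of -1.26.

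Ugt2b5, with 1038 and 972 normalized reads in the KO libraries, against 2657 and 4313 in the WT libraries, was 3.47-fold lower in the authors' deposited table (with an adjusted p of 3.49e-13). Ugt2b34, with the highest mean count of the Ugt2 genes, had 4219 and 4902 normalized reads in the KO libraries, against 6022 and 6595 in the WT libraries. Its fall was 1.38-fold in the authors' deposited table (log2 SE 0.18, adjusted p = 0.0256), and that of Ugt2b35 was 1.52-fold there (adjusted p = 0.00881). Both had the opposite sign in limma with equal totals, at 0.35 and 0.22 on the log2 scale, and limma without WT B did not call Ugt2b34.

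The Ugt3 genes, whose human forms use sugars other than glucuronic acid, fell together. Ugt3a2 had 532 and 621 normalized reads in the KO libraries, against 3786 and 3540 in the WT libraries. In the authors' deposited table Ugt3a2 was 6.36-fold lower (log2 SE 0.19, adjusted p = 1.4e-42) and Ugt3a1 6.7-fold lower (log2 SE 0.28, adjusted p = 1.15e-20).

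The sulfotransferases held the largest falls. Of 8 tested Sult genes 5 were lower and 1 higher in the authors' deposited table, and limma with equal totals called 4 lower and 2 higher. Sult2a8, a bile acid sulfotransferase of mouse liver, had 23.9 and 8.5 normalized reads in the KO libraries, against 1921 and 1845 in the WT libraries. These were 30 and 10 reads in the KO libraries, against 1782 and 1370 in the WT libraries, and the authors' deposited table gave a log2 change of -6.85 ± 0.32 (SE, adjusted p = 4.39e-98). In limma that of Sult2a8 was -7.63 without KO A and -6.24 without KO B. Sult1b1, which sulfates thyroid hormones, had 50.2 and 83.3 normalized reads in the KO libraries, against 936 and 847 in the WT libraries, a 13.4-fold fall in the authors' deposited table (with an adjusted p of 2.08e-40).

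Sult1d1, which acts on catecholamines in mouse, had 159 and 231 normalized reads in the KO libraries, against 1539 and 900 in the WT libraries, and was 6.27-fold lower in the authors' deposited table (with an adjusted p of 3.57e-19). Sult1a1, the phenol sulfotransferase, had 1524 and 2985 normalized reads in the KO libraries, against 8606 and 5187 in the WT libraries. Its log2 change in the authors' deposited table was -1.61 ± 0.59 (SE, adjusted p = 0.017), and limma with equal totals did not call it. Sult5a1 had 0 reads in both KO libraries, against 215 and 19 reads in the WT libraries, which differed 9.06-fold after normalization. Taking 3 reads over both KO libraries as the limit that a count of 0 allows, it was at least 114-fold lower than in the pooled WT libraries and at least 20.7-fold lower than in WT B alone. The adjusted p of Sult5a1 in the authors' deposited table was 0.00269.

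The 1 higher sulfotransferase was Sult1c2, named here after its values were seen because its mean of 80.5 lies under the limit of 100 set for named members. It had 159 and 136 normalized reads in the KO libraries, against 17.3 and 9.43 in the WT libraries, a 10.9-fold rise in the authors' deposited table (log2 SE 0.50, adjusted p = 5.04e-11).

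The carboxylesterases showed no common direction. All 18 lie on chromosome 8, between 93020214 and 105150109 (mm10). Of these, 6 were lower, 4 higher and 8 not called in the authors' deposited table, with a median log2 change of 0.02, and limma with equal totals called 5 lower and 6 higher. Ces4a had 51.8 and 119 normalized reads in the KO libraries, against 1020 and 932 in the WT libraries. It was 11.5-fold lower in the authors' deposited table (log2 SE 0.31, adjusted p = 4.6e-28), and its log2 change in limma without KO B was -4.21. Ces3a had 2702 and 4941 normalized reads in the KO libraries, against 12005 and 9907 in the WT libraries, and Ces3b had 830 and 1613 in the KO libraries, against 6410 and 3749 in the WT libraries. Both genotypes stood apart for these liver esterases, with falls of 2.87-fold and 4.16-fold in the authors' deposited table (with an adjusted p of 1.57e-08 and 0.00208).

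The Ces2 genes included both directions. Ces2a, a lipid hydrolase of mouse liver, had 728 and 952 normalized reads in the KO libraries, against 2800 and 3196 in the WT libraries, and was 3.57-fold lower in the authors' deposited table (with an adjusted p of 1.09e-17). Ces2g had 860 and 961 normalized reads in the KO libraries, against 377 and 350 in the WT libraries, and was 2.5-fold higher in the authors' deposited table (with an adjusted p of 1.04e-08). Ces2e had 1569 and 1943 normalized reads in the KO libraries, against 1278 and 801 in the WT libraries, and was 1.69-fold higher there (adjusted p = 0.00603).

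For 3 Ces1 genes, namely Ces1c, Ces1d and Ces1f, the WT libraries were at least 2-fold apart. Ces1f, a triacylglycerol hydrolase of mouse liver, had 34.3 and 48.4 normalized reads in the KO libraries, against 152 and 346 in the WT libraries, and was 6.01-fold lower in the authors' deposited table (with an adjusted p of 6.47e-09). Without WT B, the log2 change of Ces1f in limma was -1.87. Ces1e, known in mouse as egasyn, which holds beta-glucuronidase in the endoplasmic reticulum, was 2.62-fold lower there (adjusted p = 6.49e-05), although limma with equal totals did not call it. Ces1g had 267 and 172 normalized reads in the KO libraries, against 107 and 104 in the WT libraries, and was 2.09-fold higher in the authors' deposited table (with an adjusted p of 0.00529).

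Ces1c, a carboxylesterase of mouse plasma, had 8509 and 9584 normalized reads in the KO libraries, against 7869 and 3524 in the WT libraries. Its log2 change of 0.67 ± 0.28 (SE, adjusted p = 0.044) in the authors' deposited table was not called by limma at the authors' size factors. In limma that of Ces1c was 1.36 without WT A, where it was called, and 0.20 without WT B. Ces1d, a triacylglycerol hydrolase, had 119 and 86.7 normalized reads in the KO libraries, against 697 and 92.9 in the WT libraries, so that WT B lay between the KO libraries and the deposited adjusted p was 0.204 in the authors' deposited table. WT libraries were at least 2-fold apart for 7 of the 62 members with a mean of at least 10 (Ces1c, Ces1d, Ces1f, Ces2c, Gsta1, Sult5a1 and Ugt2b38), and KO libraries for 4 (Ces4a, Gsta1, Gsta2 and Sult2a8). Paralogs among the Ces1, Ces2 and Sult2a genes may also share reads, and how the authors' counting treated these is unknown here.

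Genes that supply the donors were called in both directions, as were all tested genes. The shares to set beside these lists and those below are 22.2% lower and 20.4% higher of all tested genes. Of 15 genes for glutathione and its NADPH supply, 5 were lower (33.3%) and 3 higher (20%) in the authors' deposited table. Cth and Cbs, which make cysteine from methionine, were lower by log2 changes of -2.01 and -1.75 in the authors' deposited table (with an adjusted p of 4.5e-29 and 1.63e-19). Gclc, the catalytic subunit of the first step of glutathione synthesis, had 712 and 733 normalized reads in the KO libraries, against 601 and 669 in the WT libraries, and was not called. Of 8 genes around UDP-glucuronate 3 were lower and 3 higher (37.5% each). Ugp2, which makes UDP-glucose, had a log2 change of -1.495 in the authors' deposited table (with an adjusted p of 2.12e-15), whereas Ugdh, which oxidizes it to UDP-glucuronate, was not called, with 3145 and 2305 normalized reads in the KO libraries, against 1407 and 2275 in the WT libraries.

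Of 8 genes around PAPS 2 were lower and 2 higher (25% each), near the shares of all tested genes. The PAPS synthases went in opposite directions in the authors' deposited table, Papss2 by -1.355 (adjusted p = 8.28e-09) and Papss1 by 2.59 (adjusted p = 8.77e-10). Papss1 had 539 and 215 normalized reads in the KO libraries, against 63.6 and 61.9 in the WT libraries, and Papss2 had 1536 and 2307 in the KO libraries, against 5267 and 4563 in the WT libraries. Other conjugating enzymes mostly fell: 13 of 16 were lower and 0 higher, with Nnmt, the nicotinamide methyltransferase, at -3.36 in the authors' deposited table (with an adjusted p of 4.79e-68). Of 13 other hydrolases 7 were lower and 2 higher, with Ephx2, the soluble epoxide hydrolase, at -3.07 and Ephx1, the microsomal one, at 0.67 in the authors' deposited table (with an adjusted p of 4.48e-54 and 0.0022).

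Of 15 transporter genes with Abc, Slc22 or Slco symbols, 8 were lower and 4 higher. The higher ones were Abcc1, Abcc3, Abcc4 and Abcc5. Among the lower ones, Abcc2, Abcc6 and Abcg2 were the Abc genes, and the others were Slc22a7 and Slco genes. The sinusoidal exporter gene Abcc3 had 6404 and 6989 normalized reads in the KO libraries, against 2731 and 3112 in the WT libraries, while Abcc2, the canalicular exporter of glutathione and glucuronide conjugates, had 5112 and 5415 in the KO libraries, against 8135 and 7304 in the WT libraries. Their log2 changes in the authors' deposited table were 1.197 (adjusted p = 3.53e-10) and -0.55 (adjusted p = 0.00516).

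Among 15 regulators of xenobiotic metabolism 9 were lower and 1 higher. Nr1i3, the nuclear receptor CAR, had 47 and 62.9 normalized reads in the KO libraries, against 1477 and 707 in the WT libraries, a log2 change of -4.32 in the authors' deposited table (with an adjusted p of 5.05e-37). Lower values in the authors' deposited table also stood for Ppara (-2.52, adjusted p = 3e-31), Hnf4a (-1.44, adjusted p = 1.83e-14) and Nr1i2, the receptor PXR (-0.80, adjusted p = 0.00106). The single higher regulator was Nfe2l2, which encodes NRF2, with 1840 and 1829 normalized reads in the KO libraries, against 443 and 711 in the WT libraries (log2 change 1.67 in the authors' deposited table, adjusted p = 2.88e-11). Ahr and Keap1 were not called (adjusted p = 0.613 and 0.495 in the authors' deposited table). Of 14 other NRF2 target genes, some of them counted in the lists above, 5 were higher and 1 lower, and Nqo1 was not called, with 53.4 and 62.9 normalized reads in the KO libraries, against 57.1 and 108 in the WT libraries. Beside the median of 0.05 over all tested genes, the median log2 change in the authors' deposited table was 0.19 for the glutathione, 0.04 for the UDP-glucuronate and -0.14 for the PAPS list. It was -2.245 for the other conjugating enzymes, -0.60 for the other hydrolases, -0.55 for the transporters, -0.80 for the regulators and 0.73 for the NRF2 targets.

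The m6A data consist of 1 peak list per genotype, taken here as IP compared with input, so differences between the lists carry no test. The KO list held 12290 peaks and the WT list 5586. Peaks were named for 37 of the 75 members in the KO list and for 28 in the WT list, with 24 members in both. Over all 16133 genes 36.3% had a peak in the KO list and 18.5% in the WT list. Among genes with a mean of at least 1000 the shares of members and of all genes were closer: 84.4% of 32 members had a peak in the KO list, against 90.2% of all genes, and 68.8% had one in the WT list, against 70% of all genes. By family, 17 of 21 Gst genes had a peak in the KO list and 9 in the WT list. Of 21 Ugt genes 11 had one in the KO list and 11 in the WT list, with 10 in both. Of 12 Sult genes 1 (Sult1a1) had a peak, in both lists. Among Ces genes 7 had a peak in the KO list and 6 in the WT list.

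Members held 61 peaks in the KO list and 47 in the WT list. By overlap of at least 1 base on the same strand, 26 of the KO peaks (42.6%) and 35 of the WT peaks (74.5%) were shared, against 27.2% and 72.2% of all peaks. No pair had the same start and end, and in Gsta3, for example, 4 WT peaks lay within 1 longer KO peak. The 35 overlapping pairs came from 22 members and share peaks among themselves. The authors' enrichment of IP over input was lower in the KO list for 21 of them and higher for 14, against 75.7% lower among 4035 pairs of all other genes. The median log2 ratio of KO over WT enrichment was -0.27 for member pairs and -1.01 for the other pairs. The paired enrichments come from peaks of unlike length. Member peaks covered a median of 196 bases in the KO list and 50 in the WT list, and all peaks 99 and 49.

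**Figure D4:**
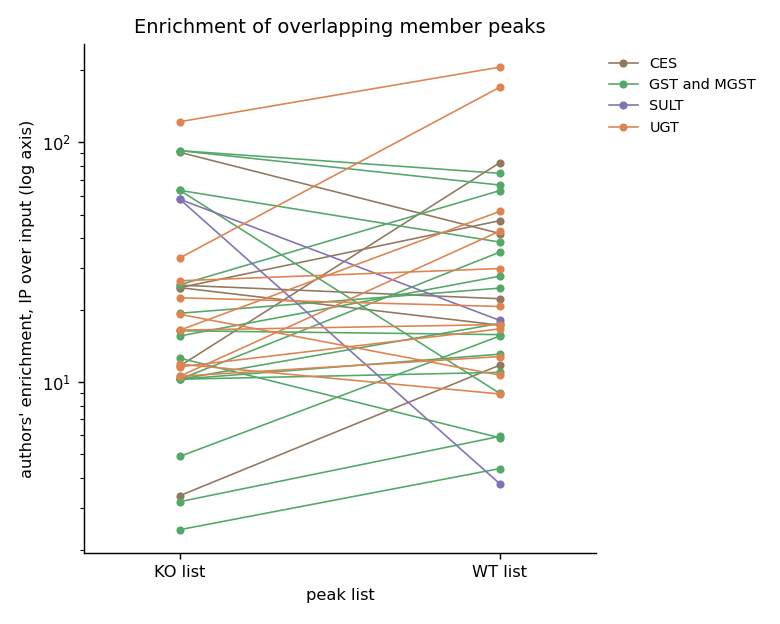
Each line is 1 of the 35 overlapping pairs of member peaks, with the authors' enrichment (log axis) in the KO list on the left and in the WT list on the right, coloured by family. Lines run in both directions, and the highest pair is that of Ugt2b35, at 122 in the KO list and 206 in the WT list.

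The highest enrichments lay on few genes. In the KO list Ugt2b35 had a peak of enrichment 122 at chr5:87000860-87001106 (mm10, plus strand), which begins at the first base of the gene, against 206 in the WT list at chr5:87000860-87000958. Mgst1 had 92.4 in the KO list, in a peak whose blocks run through several exons, against 74.3 and 66.4 for its pair of peaks in the WT list. Ces2e had 90.9 in the KO list and 41.7 in the WT list, and Gsto1 had 63.1 in the KO list, against 38.4 and 8.98 in the WT list. Among pairs with the largest drop, Ces1c had 11.7 in the KO list and 82.4 in the WT list near its end, and Ugt2b36 had 33 in the KO list and 170 in the WT list at its first base. Sult1a1 went the other way, at 57.9 in the KO list, against 18.1 and 3.77 in the WT list. Its KO peak covered 294 bases, against 99 and 49 for these WT peaks.

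Several members were listed for 1 genotype alone, as were many other genes. Among the 57 members with a mean of at least 100, 13 were listed just for KO and 4 just for WT. Of all 9202 genes with that mean, 2990 were listed just for KO and 254 just for WT. The WT list alone held peaks of Ces1b, Ces2a, Ces4a and Ugt1a5. The peaks of Ces4a had enrichments of 314 (chr8:105131850-105131899, mm10, plus strand, 50 bases into the gene) and 38.5, that of Ces1b 71, that of Ugt1a5 53.5 and that of Ces2a 12.9. Ces4a, Ces2a and Ugt1a5 were also lower in KO input, and the part of read depth in the missing KO peaks was not tested. The KO list alone held peaks of 13 members: Ces1g, Ces2c, Ces2g, Ces3b, Gstk1, Gstm2, Gstm3, Gstm5, Gstp1, Gstp2, Gstt1, Gstt3 and Ugt1a9. Their highest enrichments were 63.5 for Ces1g, 47.1 for Ces2c and 26.9 for Gstk1. Ces1g, Ces2g and Gstm3 were higher in KO input, while Ces3b, Gstk1, Gstp1, Gstp2, Gstt1 and the row of Ugt1a9 were lower.

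At the Ugt1 locus every peak named for Ugt1a9, Ugt1a6b, Ugt1a6a or Ugt1a5 lay between the start of that gene and the start of the next Ugt1 gene. Ugt1a9 had its peak in the KO list alone, at chr1:88070927-88070976 (mm10, plus strand), 148 bases into the gene, with an enrichment of 16.9. Ugt1a5 had its peak in the WT list alone, at chr1:88166061-88166209, 49 bases into the gene. Ugt1a1 had a peak at its first base in both lists, with an enrichment of 19.2 in the KO list and 10.7 in the WT list. Ugt1a6a and Ugt1a6b had their strongest peaks about as far into the gene as each other, 3980 and 4011 bases from its start, at 10.6 and 16.5 in the KO list, against 42.7 and 51.6 in the WT list.

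Many Ugt peaks began at the start of the gene. Within 50 bases of it lay 10 of 19 Ugt peaks in the KO list (52.6%) and 6 of 17 in the WT list (35.3%), against 10.6% and 9.77% of all peaks placed in their RefSeq gene. For Gst and Mgst genes these were 4 of 26 in the KO list and 1 of 17 in the WT list, and for Ces genes 3 of 14 in the KO list and 2 of 11 in the WT list. Several of these Ugt peaks belong to neighbouring copies of 1 gene family. Within 1000 bases of the gene end lay 21.3% of member peaks in the KO list and 17% in the WT list, against 19.3% and 22.9% of all peaks.

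**Figure D5:**
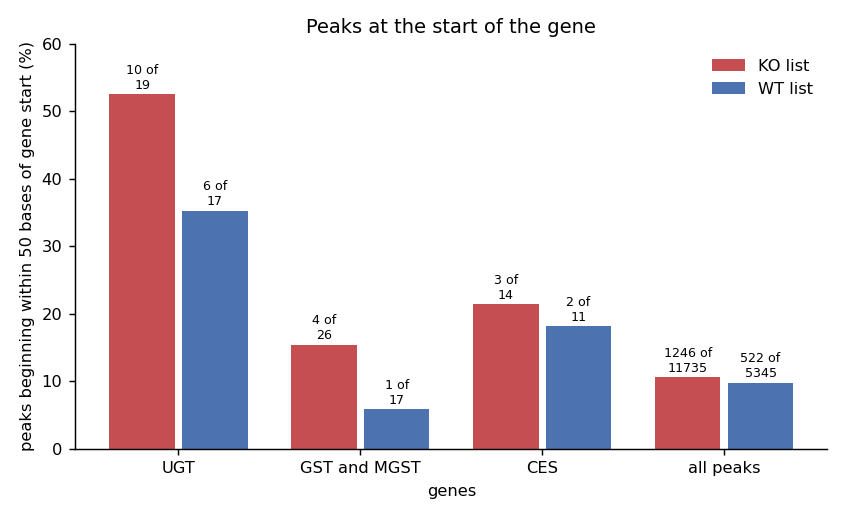
Bars give the percentage of peaks that begin within 50 bases of the gene start, for Ugt, Gst with Mgst, and Ces genes and for all peaks, with the KO list on the left and the WT list on the right of each pair and the counts written above. The Ugt bars, 52.6% in the KO list and 35.3% in the WT list, stand above those of all peaks, 10.6% and 9.77%.

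The first 30 transcribed bases of genes whose peak begins at the first base are shown because they are the 5′ edge of these peaks. Of 10 such members with a RefSeq window, 4 held the m6A core searched for in those bases, against 34.5% of all windows. All 4 of these are shown, but of those without the core only Ugt2b35 and Ugt1a1 are. Ugt1a6a, Ugt2b34, Ces1c and Ces2e, which held none, are not shown. That core is AC preceded by any pair of purines, and forms that begin with T were not searched. Capitals mark this core, read 5′ to 3′ on the strand of the gene (GRCm38.p6, the mm10 build).
Ugt2b5, both lists (chr5:87140311-87140340, minus strand): aatGGACtgtgagagaaggattttgatttt
Ugt2b36, both lists (chr5:87092526-87092555, minus strand): cactctgaagagaaGAACattgattttcag
Ugt2b1, KO list (chr5:86926474-86926503, minus strand): gcaagatgtctatgAAACaggcttcagttt
Gstm3, KO list (chr3:107969145-107969174, minus strand): gaagccagtctgagaAGACcacagcatcag
Ugt2b35, both lists (chr5:87000860-87000889, plus strand): acacagttaacagaagccctttgacttcca
Ugt1a1, both lists (chr1:88211959-88211988, plus strand): agcttgagtagatctctggcagcatcagag

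Ugt2b35, with the highest member enrichment in the KO list, and Ugt1a1 held no core of that form in the 30 bases shown. The bases of Ugt2b35 do hold AC preceded by TA and by TG, forms left out of the search. The rest of the peaks of both genes was not analysed here. Ugt2b5 had an enrichment of 22.5 in the KO list and 20.7 in the WT list. Ugt2b1 had its start peak in the KO list alone, at 15.1, and Gstm3 had 17.5 there.

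Peaks were also counted by the direction of the expression change. Among members with a mean of at least 100, 25 of the 39 lower ones had a peak in the KO list and 22 in the WT list. Of the 9 higher ones 6 had a peak in the KO list and 3 in the WT list, and of the 9 not called 6 had one in the KO list and 3 in the WT list. Among all genes with that mean, 69.1% of the lower genes had a peak in the KO list and 53.2% in the WT list. Of the higher genes 61.5% had one in the KO list and 15.9% in the WT list, and of those not called 57.9% had one in the KO list and 26% in the WT list.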

How the data were processed

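Livers of tunicamycin-treated KO and WT mice gave 8 libraries in 4 groups, input and m6A IP with 2 libraries each. Reads were processed for mm10 with HISAT2 2.1.0 and DESeq2 1.18.1, per the submitters' processing notes. The authors deposited 1 comparison of the input libraries (mean normalized count as a signal, log2 fold change with its standard error, p-value and adjusted p-value, per the file headers) and 1 peak list per genotype, with a deposited fold enrichment ratio and a p-value score whose caller the sources used here do not name, nor whether replicates were pooled.

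The expression calls are those of the authors' deposited test at an adjusted p under 0.05. Reads per library were not used as deposited counts but worked out from the printed digits of each mean, as whole reads whose size-factor-scaled average gives the printed mean, with the deposited fold change where the mean alone was not enough. This worked for 16052 of 16133 genes (99.5%) and all 75 members, and was tested on simulated data. The totals given for libraries are estimates. With recovered reads, limma 3.58.1 (R 4.3.3) was run on log2(normalized count + 1) as an alternative, with pseudocounts of 0.5 and 5, equal totals, and each library left out, and no count model was run. Fold changes on that scale understate the change of low genes. Overlap of peaks was counted with bedtools 2.31.1.

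The members and gene lists were chosen with earlier results of these data known. Named members were the up to 3 with the largest called change per direction in each subfamily at a mean of at least 100, those with the highest mean, and those with peaks in 1 list or the highest enrichment. Other members, and Gclc, Ugdh, Papss2, Abcc2, Abcc3, Ephx1 and Nqo1, were named for their role or locus after their values were seen. Values of some list genes and a search of promoter motifs are not reported here. Sequences are from RefSeq tables of GRCm38.p6. Intervals of counts were not computed, and the limit that a count of 0 allows covers counting error only.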

Additional observations from a re-analysis of the deposited data

How the results depend on the processing

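No paired analysis was possible because the replicate numbers of the input libraries cannot be read from the deposited means. With equal totals, limma called 16 members higher, and the median log2 change was -0.249. The median was -1.434 over members with a mean of at least 10, and -0.664 with the Ugt1 rows counted once, an alternative chosen after seeing the data. Among the members named by rule, the log2 change with equal totals had the opposite sign for Ces1b (0.429), Gstm5 (0.410), Gsto1 (0.168), Gstp1 (0.273), Gstp2 (0.283), Gstt3 (0.438), Ugt2b34 (0.351) and Ugt2b35 (0.224). Ugt2b1, a called member outside that rule, changed sign as well. For genes not called, it ranged over the left-out libraries from -0.155 to 0.293 for Gstm1, from -0.077 to 0.522 for Gstm2 and from -0.312 to 0.811 for Ces2c. The cause was not tested. Leaving out 1 library at a time, limma called 0 to 12 members higher and 0 to 41 lower, with medians of -1.079 to -0.771, and 0 to 43 of the 43 named called members. The counts of 0 came without KO A and without KO B, where limma called 0 genes in the whole table, and the lone KO library is there assumed to vary like the WT pair. Without WT B, limma did not call Ces1c, Gstp1, Gstp2 and Ugt2b34. Requiring the same start and end left 0 shared member peaks in either list. The 4 input libraries, the unstated independence of the mice and the single peak list per genotype limit precision.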
